A study of Mus musculus with 12 samples.

Results

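The livers of 6 male mice were compared, 3 labelled KO (KO_M_118, KO_M_122 and KO_M_136) and 3 labelled Het (Het_M_119, Het_M_125 and Het_M_137), and the comparison was set against the same one in 6 female livers, so that 6 of the 12 livers of the study are the subject here. KO mice are the CX mice of the study, which lack both Csa and Xpa, while Het mice lack Csa and carry 1 working copy of Xpa. The sample labels themselves write the KO genotype as Csa-/-;Xpa+/+ and the Het genotype as Csa-/-;Xpa+/-, so the Xpa reads are given first below. All 12 mice, controls included, therefore lack Csa, and all received AAV9-CSA, a vector that carries the human CSA cDNA behind the ubiquitous chicken β-actin promoter, by injection into the cerebral ventricles as newborns. The KO livers were taken when the mice met the humane endpoint, and the Het livers came from littermates matched to them in age, whose individual ages are not given. Group and terminal illness cannot be told apart in this design. Nothing in the labels says that the mice of a group came from separate litters or were handled on separate days, so p-values measure the spread between these mice.

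CSA and XPA act in nucleotide excision repair, in which CSA serves the branch that clears lesions stalling RNA polymerase and XPA verifies the lesion in both branches. Liver is one of the most sexually dimorphic tissues of the mouse. Pulsed release of growth hormone in males and more continuous release in females act through the receptor GHR and the transcription factor STAT5B, with BCL6 and CUX2 as repressors that differ between the sexes, and they set which cytochrome P450, sulfotransferase and major urinary protein genes a liver expresses. Genes called female-biased or male-biased below come from lists of such genes known in untreated mice.

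Expression was measured by sequencing total RNA depleted of ribosomal RNA. Genes were tested if at least 3 of the 6 male livers had 5 or more reads after scaling to the median library, which 18083 of 57180 genes did, and levels are given as CPM, the reads of a gene over all reads of its library on a common scale. The male libraries held 30044781 to 43200195 counts assigned to genes. A gene was called when the edgeR quasi-likelihood test gave a Benjamini-Hochberg adjusted p under 0.05 over all tested genes. Male and female contrasts share no liver, and the difference between them was tested for each gene in the same fit.

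The labels were checked with the genes of the design. Xpa (ENSMUSG00000028329.14) stood at 6.30, 5.99 and 5.51 CPM in the male Het livers and at 1.17, 1.13 and 1.23 CPM in the male KO livers. Thus every KO liver lay below every Het liver, and Xpa fell by 2.28 on the log2 scale (SE 0.231, adjusted p = 0.00030). Ercc8, the mouse gene for CSA, was at 7.69, 6.38 and 6.45 CPM in Het and at 14.7, 14.9 and 19.7 CPM in KO livers (log2 fold change 1.26, adjusted p = 0.012). Reads of the human cDNA that map to mouse Ercc8 cannot be told apart from its own reads here.

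In male livers 859 genes were called higher in KO, or 4.75% of those tested, and 597 were called lower, or 3.30%. KO and Het male livers did not overlap in CPM for 5950 genes, 32.9% of all, and for 1454 of the 1456 called genes. Leaving out 1 Het male brought the male calls to 726 (Het_M_119), 587 (Het_M_125) or 778 (Het_M_137). Leaving out 1 KO male brought them to 601 (KO_M_118), 974 (KO_M_122) or 817 (KO_M_136). Without 1 of the female livers they were between 1271 (Het_F_111) and 1888 (KO_F_108). In females 1056 genes (5.84%) were called higher and 1038 (5.74%) lower. Of the 859 genes called higher in males, 389 were also called higher in females, 4 were called lower there and 466 were not called, and the median log2 fold change of the 859 was 1.39 in males and 0.776 in females. Of the 597 genes called lower in males, 289 were also called lower in females, 2 were called higher and 306 were not called. The direction was the same in both sexes for 92.1% and 92.0% of these genes, against 68.6% of all tested genes. Most genes that changed in males therefore had the same sign in females, and what follows is mainly about the genes for which that was not so or for which the sizes differed.

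**Figure D1:**
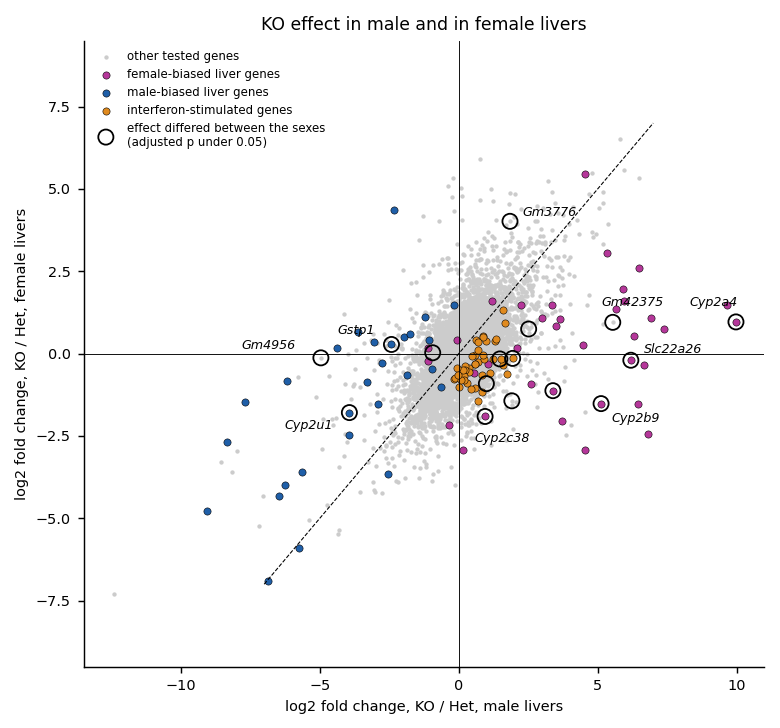
Each point is a tested gene, with its log2 fold change KO / Het in male livers on the x axis and in female livers on the y axis. The dashed line marks equal effects, colours mark gene lists and open circles mark 16 genes whose effects differed between the sexes (3 genes not reported here, 1 of them such a gene, are not drawn). Most female-biased genes lie to the right of 0 and under the dashed line, on both sides of 0 on the female axis, and most male-biased genes lie to the left of 0 and above the line.

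The difference between the male and the female effect was called for 17 genes, 0.0940% of those tested, 12 with the more positive effect in males and 5 with the more negative. At an unadjusted p under 0.05 the difference was positive for 901 genes (4.98%) and negative for 784 (4.34%). The number of calls moved with single livers. It was between 4 and 12 without any 1 of 11 livers and 93 without KO_F_123. In all 16 genes named below Het males lay wholly above or wholly below Het females, and in 11 of the 16 the KO males overlapped the KO females. No share over all genes is given beside these counts. The test of the difference used these same livers, so a gap between the Het sexes is part of what it picks and no separate result.

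Cyp2a4 (ENSMUSG00000074254.5), a female-biased steroid 15α-hydroxylase, had the smallest p. Its level was 0.762, 0.814 and 0.506 CPM in male Het livers and 1006, 844 and 415 CPM in male KO livers. The female Het livers were at 518, 316 and 553 CPM and the female KO livers at 914, 1151 and 639 CPM, so the male KO livers lay in the range of the females and the male Het livers far under it. Cyp2a4 rose by a log2 fold change of 9.98 in males (SE 0.491, adjusted p = 3.1e-06), the value in females was 0.963 (adjusted p = 0.079), and the difference was 9.01 (SE 0.549, adjusted p = 3.5e-05). Cyp2a4 lies at chr7:26006594-26014513 of GRCm39, and its coding sequence is 98.4% identical to that of Cyp2a5, so reads of the pair may be shared between them by the counting. The paralog Cyp2a5 was at 1242, 968 and 572 CPM in Het and at 4353, 1737 and 1676 CPM in KO males (log2 fold change 1.48, adjusted p = 0.20). The sum of both genes was 1243, 968 and 572 CPM in Het and 5359, 2581 and 2091 CPM in KO males. In the Het males nearly all reads of the pair had thus gone to Cyp2a5. The lncRNA model Gm42375 overlaps Cyp2a4 on the other strand and had 1 read in the 3 male Het livers and 351 in the male KO livers, a ratio of 285 with an exact 95% counting interval of 50.8 to 11290. It passed the filter only through the KO males, which fixed the direction of its change in males.

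Cyp2b9, a cytochrome P450 whose gene lies close to Cyp2a4 on chromosome 7, had opposite signs in the sexes. It was at 4.64, 1.46 and 1.49 CPM in male Het livers and at 60.7, 100.2 and 109 CPM in male KO livers, with no overlap. In females the Het livers were at 504, 482 and 185 CPM and the KO livers at 64.1, 153 and 192 CPM, and those groups overlapped. The male log2 fold change was 5.12 (adjusted p = 0.0016), the female one -1.52 (adjusted p = 0.096) and the difference 6.64 (adjusted p = 0.030). Slc22a26, which encodes an organic anion transporter, stood at 0.166, 1.59 and 0.380 CPM in male Het livers against 34.2, 63.5 and 71.1 CPM in male KO livers. Female livers of both genotypes held between 73.2 and 138 CPM of it, and the difference between the sexes was 6.39 (adjusted p = 0.029). Its neighbour Slc22a27 was at 0.332, 1.14 and 0.538 CPM in male Het and at 4.52, 10.1 and 8.05 CPM in male KO livers, with a difference of 4.51 (adjusted p = 0.047). Both transporter genes lie on chromosome 19 and belong to a cluster of near copies, so their counts are uncertain to that extent. Cyp2c38 was not called in males (14.1, 34.9 and 17.7 CPM in Het, 35.7, 49.8 and 43.5 CPM in KO, adjusted p = 0.069) but fell in females by 1.91 on the log2 scale (adjusted p = 0.0049), which made its difference 2.86 (adjusted p = 0.042).

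Male-biased genes gave the mirror image. Gstp1, a glutathione S-transferase of the pi class, was at 1451, 905 and 1243 CPM in male Het livers and at 243, 255 and 175 CPM in male KO livers, and all female livers lay between 126.3 and 244 CPM. It fell in males by 2.42 on the log2 scale (adjusted p = 8.5e-04), was not called in females (log2 fold change 0.278) and differed by -2.70 (adjusted p = 0.042). Cyp2u1, a fatty acid hydroxylase, was at 98.2, 69.2 and 109 CPM in male Het and at 7.69, 4.38 and 5.82 CPM in male KO livers. It fell in both sexes, by 3.93 in males and 1.79 in females, and the difference was -2.14 (adjusted p = 0.049). The lncRNA model Gm4956 stood at 16.6, 14.2 and 10.9 CPM in male Het livers and between 0.248 and 0.544 CPM in the other 9 livers, with a difference of -4.83 (adjusted p = 7.4e-04). Gm4956 is not in the list of male-biased genes, and its higher level in males is read from these Het livers alone.

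The other genes of the 16 were of mixed function. Gbp3, a guanylate-binding protein induced by interferon, was at 5.14, 3.68 and 4.43 CPM in male Het and at 17.0, 17.3 and 17.1 CPM in male KO livers, while female livers held 8.90 to 18.3 CPM of it whatever the genotype (difference 2.09, adjusted p = 0.047). Fmo4, a flavin monooxygenase gene, rose in males by 1.48 (adjusted p = 9.8e-04) and differed by 1.64 (adjusted p = 0.047). Aph1b, a subunit of γ-secretase, rose in both sexes and more in males (difference 1.77, adjusted p = 0.049). Gm3776, a glutathione S-transferase alpha gene with near copies, rose in both sexes and less in males (log2 fold changes 1.85 and 4.02, difference -2.17, adjusted p = 0.049). Ahcyl2, an inositol trisphosphate receptor-binding protein gene, fell in males by 0.936 (adjusted p = 7.5e-04) and was not called in females. Fam171b and the lncRNA model Gm6135 were called higher in male KO and lower in female KO livers, with differences of 1.91 and 3.35.

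**Figure D2:**
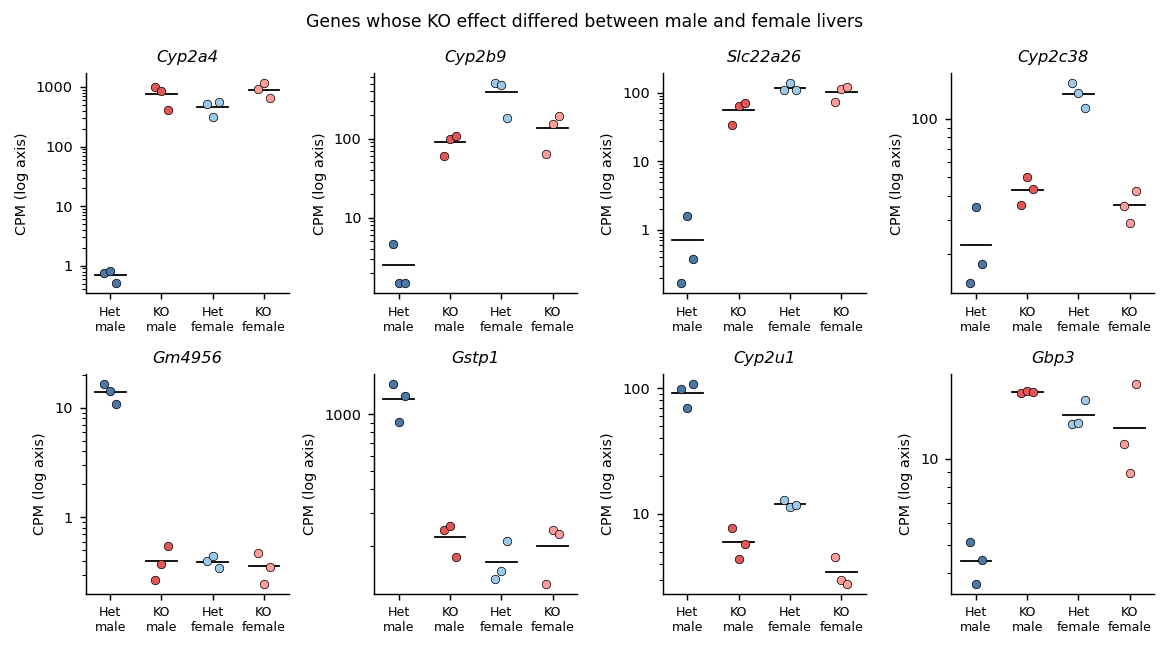
CPM (log axis) of 8 genes whose KO effect differed between the sexes, with 1 point per liver and a line at the mean of the 3 livers of a group. Male Het livers stand apart from the other 3 groups in every gene drawn except Cyp2c38, in which female Het livers stand apart.

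The same pattern ran through the lists of sex-biased liver genes. Of 39 listed female-biased genes 37 were tested, and 25 were called higher in male KO livers and 1 lower, against a background of 4.75% and 3.30%. Their median log2 fold change was 4.46 in males, or 3.70 with genes that had no read in the Het livers set at their lower bound, and 0.407 in females, against 0.00691 and -0.00772 over all tested genes. KO and Het male livers did not overlap for 33 of the 37, against 32.9% of all genes. In females 5 were called higher and 3 lower, and the difference between the sexes had an unadjusted p under 0.05 and a positive sign for 26 of 37, against 4.98% of all genes, and passed adjustment for 6, against 0.0940%. The count of 25 was 16 without Het_M_137 and between 19 and 25 without any other liver. It was 15 when every male liver had to hold 10 reads, which removes genes near 0 in Het males by construction. How many members stayed tested there is not given. Conversely, members near 0 in Het males, such as Sult2a1, Sult2a2 and Akr1b7 (at most 4 reads in any Het male), passed the main filter only through the KO males. The direction of their change was thus fixed by the filter, and they add no support to the median or the count of 25. How many of the 37 passed in that way is not given.

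Among the female-biased genes, the transcriptional repressor Cux2 was at 0.829, 0.488 and 0.475 CPM in male Het livers and at 31.2, 20.2 and 46.3 CPM in male KO livers (log2 fold change 5.64, adjusted p = 6.5e-04). Cyp3a41a, a cytochrome P450, was at 0.0663, 0.260 and 0.221 CPM in Het and at 31.7, 399 and 141 CPM in KO livers, and its close relatives Cyp3a44 and Cyp3a16 also rose, by 7.40 and 6.47. The KO livers thus differed among themselves, and KO_M_118 was the lowest of the 3 for all these Cyp3a genes. The call of Cyp3a41a was lost without any 1 of the Het males (adjusted p 0.059 to 0.065). The call of Cyp3a16 was lost without any 1 of the Het males, KO_M_122 or KO_M_136 (adjusted p 0.074 to 0.16). It was also lost without Het_F_111, KO_F_108 or KO_F_123, with the older quasi-likelihood method, no filter or limma. The sulfotransferases Sult2a1 and Sult2a2, which sulfate steroids and bile acids, had 2 reads and 1 read in the Het livers together, with KO to Het ratios of 402 (exact 95% counting interval 110.9 to 3321) and 449 (80.3 to 17770). In KO_M_118, KO_M_122 and KO_M_136, Sult2a1 was at 0.990, 23.2 and 4.13 CPM. KO_M_122 held 801 of the 989 KO reads of Sult2a1 and 381 of the 553 of Sult2a2, and the ratios were 109.6 (29.9 to 911) and 200.5 (35.5 to 7963) without it and 630 (174 to 5206) and 709 (127 to 28050) without KO_M_118. Both calls were lost without KO_M_122 or any 1 of the Het males, and with the older quasi-likelihood method, no filter or limma. Cyp2c69 rose by 6.44 (adjusted p = 0.0045), from 0.497, 1.40 and 0.316 CPM to 17.4, 94.4 and 95.1 CPM. Further members called higher were the P450 genes Cyp2c39, Cyp2c40, Cyp2b13, Cyp17a1 and Cyp39a1, the aldo-keto reductase Akr1b7, the proton pump subunit Atp6v0d2, the transporters Abcc4, Abcd2 and Nipal1, and Trim24, Prom1 and Fmo2, with log2 fold changes between 1.07 for Trim24 and 5.93 for Nipal1. Of these, Abcc4, Abcd2, Cyp17a1, Cyp2b13, Cyp2c40 and Fmo2 lost the call without 1 or more single livers. Cyp17a1 lost it without any 1 of the Het males, and Abcd2 without any 1 of the KO males. Akr1b7, like Sult2a1 and Sult2a2, passed the filter only through the KO males. Ttc39c was the member called lower (log2 fold change -1.09, adjusted p = 0.048), a call lost without any 1 male liver (adjusted p 0.053 to 0.15).

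Of 29 listed male-biased genes 28 were tested, and 16 were called lower in male KO livers and none higher, against 3.30% and 4.75% of all genes. The median log2 fold change was -3.17 in males and -0.848 in females, where 10 were called lower and 1 higher and 9 of the 16 were called lower as well. The difference between the sexes was negative with an unadjusted p under 0.05 for 18 of 28, against 4.34% of all genes, and passed adjustment for 2, against 0.0940%. Leaving out 1 liver gave 14 to 18 calls. Ugt2b38 had 12 reads in the KO males together, at most 5 in 1 liver, and passed the filter only through the Het males. The direction of its change was thus fixed by the filter, and it adds no support to the median or the count of 16. How many other members passed in that way is not given. Hsd3b5, a steroid dehydrogenase of male liver, was at 142, 135 and 187 CPM in Het and at 0.337, 0.174 and 0.745 CPM in KO livers (log2 fold change -8.36, adjusted p = 9.3e-04). Slco1a1, an uptake transporter of organic anions, fell from 395, 492 and 439 CPM to 2.86, 6.69 and 1.78 CPM. Its effect was as large in females, at -6.85 in males and -6.90 in females. The other members called lower included Cyp7b1 (-2.92), an oxysterol hydroxylase, Cyp2d9 (-3.04), Ugt2b38 (-7.69), Elovl3 (-5.65), which elongates fatty acids, and the coenzyme A hydrolase Nudt7 (-3.94).

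Major urinary proteins are lipocalins that bind pheromones and are secreted by liver. Mup7 was at 4333, 1441 and 1438 CPM in Het and at 6.16, 2.67 and 4.38 CPM in KO livers. Mup15 had no read in the KO livers and 727, 107 and 85.6 CPM in the Het livers, and was thus at least 3827-fold lower against a floor of 3 counts per liver. It passed the filter only through the Het males, which fixed the direction of its change. Mup11, Mup14, Mup16 and Mup17 were also among the 10 largest falls, with log2 fold changes between -8.16 and -6.46. In female KO livers Mup7, Mup11, Mup14, Mup15 and Mup16 were called lower as well, with log2 fold changes between -7.31 and -4.31, Mup17 was not (-3.60, adjusted p = 0.076), and the difference between the sexes passed adjustment for none of the 6. Het_M_119 was the highest of the Het livers for each of these genes, and no KO liver approached any Het liver. Mup genes are near copies of each other, so the split of reads between them is uncertain. Of 23 tested Mup genes 16 were called. They begin 13.8 Mb from Xpa on chromosome 4, and of the other genes within 20 Mb of Xpa 21 of 231 (9.09%) were called in either direction, against 8.05% of all genes. The remaining large fall, Serpina4-ps1, went from 44.9, 134 and 97.0 CPM to 0.0675, 0.435 and 0.0860 CPM.

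**Figure D3:**
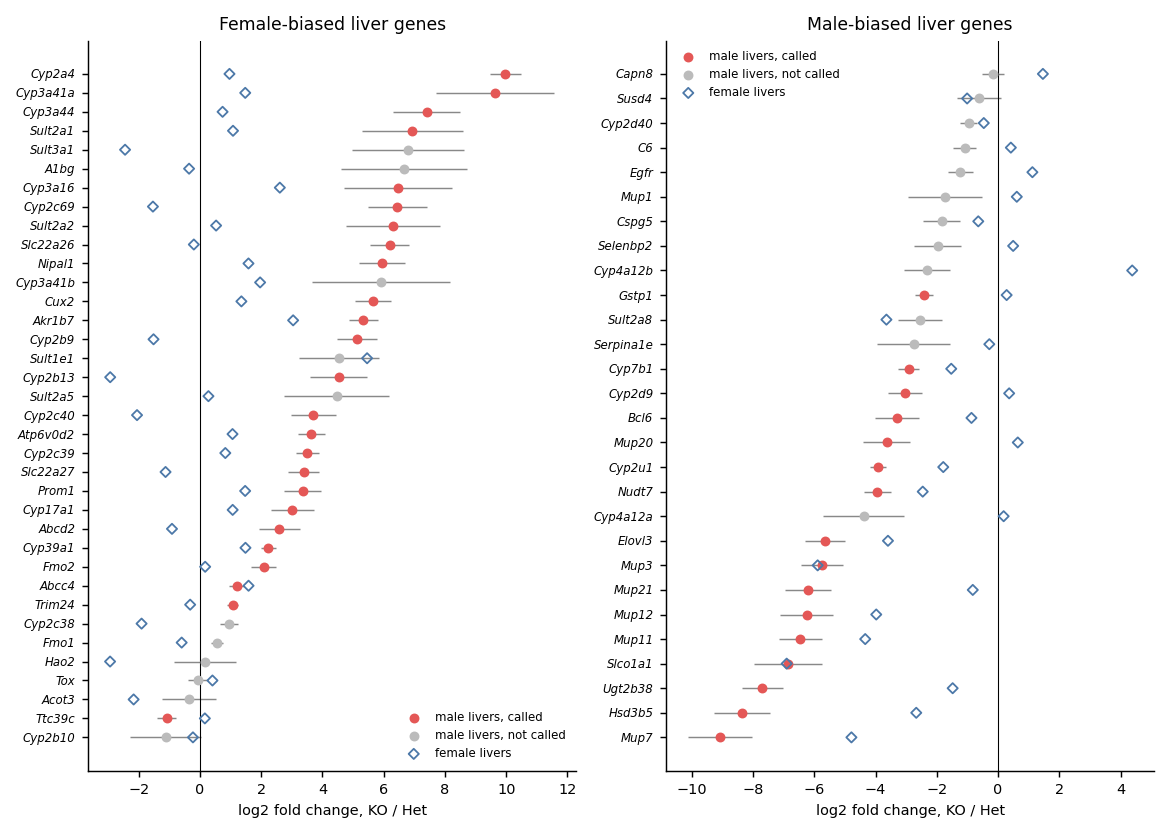
The log2 fold change KO / Het of each tested female-biased (left) and male-biased (right) liver gene, with filled circles and SE bars for male livers and open diamonds for female livers (1 gene not reported here is left out). Male values run up to 9.98 on the left and down to -9.07 on the right, and most female values lie closer to 0.

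Levels in the Het groups bore out the names of the lists, and the gap between the sexes was smaller in KO livers. Het females lay wholly above Het males for 34 of the 37 female-biased genes, whereas KO females lay wholly above KO males for 16. The median log2 ratio of female to male mean CPM was 5.22 in Het and 0.974 in KO livers. For the 28 male-biased genes the Het sexes were separate as named in 26 and the KO sexes in 14, and the median log2 ratio was -3.86 in Het and -1.57 in KO livers. The share of all tested genes with such separation between the sexes is not given, so these counts stand without a background. In 11 of 37 female-biased genes the mean of KO males was at or above the mean of Het females, and in 15 of 28 male-biased genes it was at or below it. Het_F_126 stood apart from the other Het females in some of these genes, for example at 6.33 CPM of Cyp3a41a against 339 and 1519 CPM.

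Upstream genes of this system moved less uniformly. Of 20 genes of the growth hormone axis 2 were called higher and 2 lower, against 4.75% and 3.30% of all genes, and the list is too small to show an excess or a likeness. Without 1 liver, 1 or 2 were called higher and 0 to 3 lower (0 without any 1 of the KO males, 3 without KO_F_108). Ghr, the growth hormone receptor, was at 585, 515 and 519 CPM in Het and at 134, 170 and 214 CPM in KO livers (log2 fold change -1.64, adjusted p = 0.039), and the call was lost without any 1 of the 6 male livers (log2 fold changes -1.83 to -1.49, adjusted p 0.074 to 0.13) and, by little, without Het_F_111 or Het_F_126 (adjusted p = 0.051 and 0.052). Socs2, a feedback inhibitor of its signal, was at 7.76, 30.5 and 15.1 CPM in Het and at 94.8, 130 and 59.5 CPM in KO livers (log2 fold change 2.41, adjusted p = 0.044), a call that held only without Het_M_125 or a Het female when 1 liver was left out (adjusted p 0.056 to 0.12 without any other liver). Bcl6, a male-biased repressor, was at 13.1, 14.1 and 70.7 CPM in Het and at 3.55, 3.07 and 3.18 CPM in KO livers (log2 fold change -3.30, adjusted p = 0.023), with Het_M_137 far above the other Het livers. The call of Bcl6 was lost without any 1 of the KO males (adjusted p 0.072 to 0.077). Igf1, the main growth hormone-dependent growth factor, was at 505, 540 and 470 CPM in Het and 470, 418 and 527 CPM in KO livers, which overlapped (log2 fold change -0.0988, SE 0.197, adjusted p = 0.80). Stat5b (log2 fold change 0.445, adjusted p = 0.070), Cish (-0.308, 0.83), Igfals (-0.997, 0.14) and Onecut1 (-1.19, 0.38) were not called. The estrogen receptor Esr1 rose from 14.4, 16.5 and 18.8 CPM to 47.0, 40.6 and 58.3 CPM (log2 fold change 1.55, adjusted p = 0.0020). It was not called in females (0.290), and the difference of 1.26 did not pass adjustment (adjusted p = 0.24).

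Interferon-stimulated genes, which encode antiviral and guanylate-binding proteins, gave opposite medians in the sexes. Of 42 listed and tested, 11 were called higher in males and none lower, against 4.75% and 3.30% of all genes, with a median log2 fold change of 0.660. In females 1 was called higher and 2 lower, with a median of -0.362. The difference between the sexes was positive with an unadjusted p under 0.05 for 23 of the 42, against 4.98% of all genes, but only Gbp3 passed adjustment. The count of 11 in males was 6 without Het_M_119, 4 without Het_M_125, and 7 without Het_M_137, KO_M_118 or KO_M_122. Zbp1, a sensor of Z-form nucleic acids, stood at 2.65, 4.20 and 3.42 CPM in Het and at 11.9, 11.8 and 11.1 CPM in KO males (log2 fold change 1.74, adjusted p = 0.0075), against -0.611 in females (adjusted p = 0.20, adjusted p of the difference 0.090). Usp18, which restrains interferon signalling, rose in both sexes (log2 fold changes 1.59 and 1.32). In this list too the Het males were the low group. Het females lay wholly above Het males for 18 of the 42 genes and KO females above KO males for none, and the median log2 ratio of female to male was 0.541 in Het and -0.393 in KO livers. These counts of separation also lack a share over all genes.

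Promoters of genes from these lists are shown because interferon and growth hormone act through known DNA elements. The 300 bases from 250 before to 50 after the start of the canonical transcript (GENCODE, GRCm39) were searched for GAAANNGAAA, a core of the interferon-stimulated response element, and for TTCNNNGAA, the core bound by STAT proteins, on both strands. GAAANNGAAA was in 54.8% of the 42 listed interferon-stimulated genes and in 3.80% of all 13832 tested protein-coding genes. It was in 6 of the 11 genes called higher (54.5%) and in 17 of the 31 not called (54.8%). TTCNNNGAA was in 2 of the 25 female-biased genes called higher (8.0%), in 1 of the 16 male-biased genes called lower (6.25%) and in 7.70% of all. Usp18 holds the first of these motifs, Zbp1 and Slc22a26 hold both, and Cyp2a4 holds neither in this window. Capitals mark matches, which overlap in Zbp1 and Slc22a26. The windows are chr2:173060675-173060974 on the minus strand for Zbp1, chr6:121222607-121222906 on the plus strand for Usp18, chr19:7780006-7780305 on the minus strand for Slc22a26 and chr7:26006344-26006643 on the plus strand for Cyp2a4.
Zbp1: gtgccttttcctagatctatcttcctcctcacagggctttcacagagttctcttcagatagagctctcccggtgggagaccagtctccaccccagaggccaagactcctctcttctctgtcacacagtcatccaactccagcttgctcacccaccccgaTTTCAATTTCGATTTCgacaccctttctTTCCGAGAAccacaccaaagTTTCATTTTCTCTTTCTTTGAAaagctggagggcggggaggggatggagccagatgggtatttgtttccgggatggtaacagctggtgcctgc
Usp18: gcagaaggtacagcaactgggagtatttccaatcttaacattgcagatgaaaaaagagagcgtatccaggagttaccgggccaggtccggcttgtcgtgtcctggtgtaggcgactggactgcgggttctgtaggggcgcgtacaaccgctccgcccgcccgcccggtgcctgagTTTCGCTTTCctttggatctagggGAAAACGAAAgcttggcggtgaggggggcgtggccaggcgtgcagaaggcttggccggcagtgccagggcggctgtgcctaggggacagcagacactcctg
Slc22a26: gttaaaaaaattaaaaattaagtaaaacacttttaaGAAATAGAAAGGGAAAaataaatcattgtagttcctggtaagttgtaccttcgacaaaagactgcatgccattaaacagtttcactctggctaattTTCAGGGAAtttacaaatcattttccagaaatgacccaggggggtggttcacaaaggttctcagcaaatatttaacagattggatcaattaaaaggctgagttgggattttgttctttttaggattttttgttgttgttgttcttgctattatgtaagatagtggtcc
Cyp2a4: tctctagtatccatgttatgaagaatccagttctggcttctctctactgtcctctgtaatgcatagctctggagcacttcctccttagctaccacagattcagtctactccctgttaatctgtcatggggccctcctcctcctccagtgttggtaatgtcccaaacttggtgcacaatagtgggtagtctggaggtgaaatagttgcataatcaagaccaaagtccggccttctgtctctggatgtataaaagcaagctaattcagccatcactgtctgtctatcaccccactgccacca
The share of promoters with a match was thus close in called and other interferon-stimulated genes, and the female-biased genes were near the share of all promoters for TTCNNNGAA.

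Genes of cholesterol synthesis and uptake showed opposite medians in the sexes. Of 26 genes 4 were called higher in males and none lower, against 4.75% and 3.30% of all genes, with a median log2 fold change of 0.589. In females none was called higher and 2 lower, with a median of -0.380, and the difference was positive with an unadjusted p under 0.05 for 12 of the 26, against 4.98% of all genes, none passing adjustment. Srebf2, the transcription factor that drives the pathway, was at 35.8, 33.4 and 41.0 CPM in male Het and at 63.2, 83.7 and 74.7 CPM in male KO livers (log2 fold change 1.01, adjusted p = 0.0049), with -0.0259 in females. Mvk, mevalonate kinase, rose by 1.44 (adjusted p = 0.016). The call of Mvk was lost without Het_M_119, Het_M_125 or KO_M_122 (adjusted p 0.052 to 0.071). The count of 4 fell to 1 without Het_M_119 and to 2 without Het_M_125, Het_M_137 or KO_M_122, and was 8 without KO_F_108.

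Chaperones of the endoplasmic reticulum were called lower in 6 of 24 cases in males and none was called higher (3.30% and 4.75% of all genes), with a median of -0.628, against 1 of 24 called lower in females with a median of -0.0768. The difference was negative with an unadjusted p under 0.05 for 7 of 24, against 4.34% of all genes, none passing adjustment. Hspa5 (BiP), the main chaperone of the compartment, was at 612, 735 and 1238 CPM in Het and at 367, 451 and 471 CPM in KO males, and Derl3, a component of the degradation machinery, at 1.66, 5.08 and 15.1 CPM against 0.877, 0.377 and 0.630 CPM. Het_M_137 was the highest liver for both and for Hsp90b1, which was at 606, 734 and 883 CPM in Het and at 431, 480 and 487 CPM in KO livers. The count of 6 fell to 0 without Het_M_137 or without any 1 of the KO males, and to 1 without Het_M_125. Without KO_M_118, KO_M_122 or KO_M_136 the log2 fold change of Hspa5 was -0.9018, -1.033 and -1.075, and all male calls fell to 601, 974 and 817. Among single livers left out, Het_M_137 gave the smallest falls of Hspa5 (-0.6484), Derl3 (-2.309) and Hsp90b1 (-0.5241). The cause of the lost calls was not tested.

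**Figure D4:**
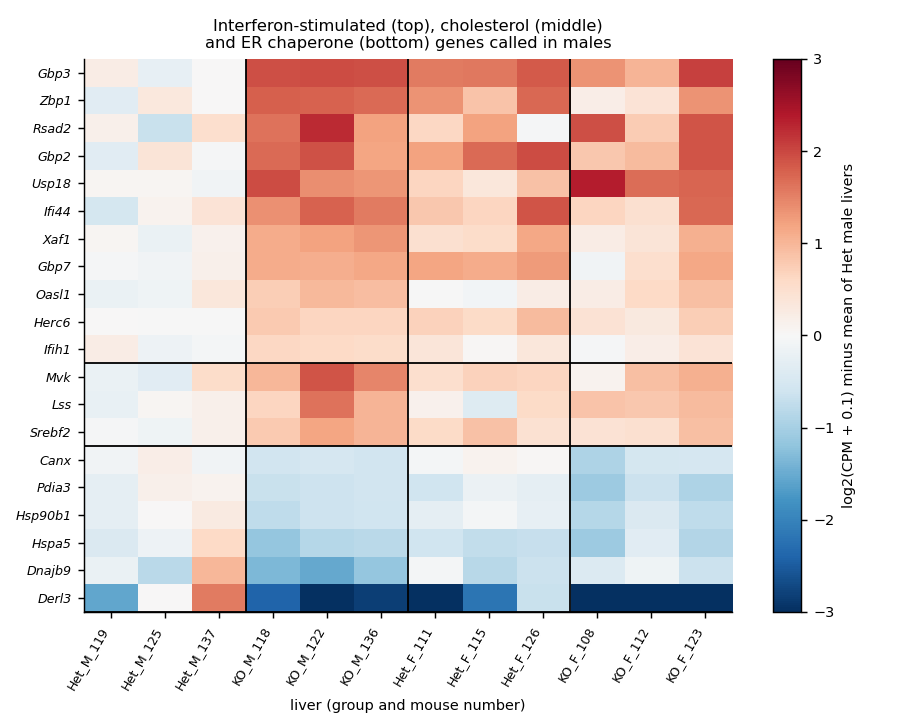
Members of 3 lists called in males (rows) in each of the 12 livers (columns), coloured by log2(CPM + 0.1) minus the mean of the Het male livers. KO males are red for all 11 interferon-stimulated and the 3 cholesterol genes drawn (1 more is not reported here), and Het females are mostly red as well.

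In several lists the counts and medians were alike in both sexes. The shares of all genes called higher and lower, to which the counts below compare, were 4.75% and 3.30% in males and 5.84% and 5.74% in females. Classical acute phase proteins, secreted by hepatocytes in inflammation, were called higher for 13 and lower for 2 of 28 genes in males and for 11 and 1 in females, with medians of 0.856 and 0.914. Orm2 (orosomucoid) was at 7.19, 8.66 and 6.68 CPM in Het and at 177, 90.4 and 94.0 CPM in KO males, and Lcn2, an iron-siderophore binder, at 2.88, 4.13 and 0.949 CPM against 122.4, 91.8 and 126.2 CPM. C3, the complement component with the most reads of any gene called higher, was at 5606, 9307 and 6207 CPM in Het and at 13426, 11518 and 14454 CPM in KO livers, and its call was lost without Het_M_119, Het_M_137, KO_M_118 or KO_M_136 (adjusted p 0.071 to 0.079). The count of 13 was 5 without Het_M_137, 6 without KO_M_118 or KO_M_136 and 8 without Het_M_125. Serpina3k, a protease inhibitor of the same list, went the other way in males (9530, 8377 and 7295 CPM against 3894, 4192 and 3956 CPM, log2 fold change -1.07, adjusted p = 0.024) and was not called in females (0.351). Its difference between the sexes was -1.42 (adjusted p = 0.25), and its male call was lost without any 1 male liver other than Het_M_137 (adjusted p 0.063 to 0.086). The lncRNA Neat1, the scaffold of paraspeckles, fell in males (6297, 13329 and 3906 CPM against 1271, 2478 and 1394 CPM, log2 fold change -2.19, adjusted p = 0.017), with 0.562 in females and a difference of -2.76 (adjusted p = 0.22). The call of Neat1 was lost without Het_M_125, where its log2 fold change was -1.57 (adjusted p = 0.057), without KO_M_118 or KO_M_136, without the filter, with length-scaled counts (-1.19, adjusted p = 0.062) and in both limma fits on TPM (-0.95, adjusted p = 0.13 and 0.12). The other genes with the most reads among those called were Ahsg and Mat1a, both higher in KO, and Serpina1c, lower in KO. The call of Ahsg was lost without any 1 male liver (adjusted p 0.087 to 0.13) or any 1 Het female (0.052 to 0.060). The call of Mat1a was lost without any 1 male liver other than KO_M_122 (adjusted p 0.052 to 0.11). Both were also lost without robust estimation.

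NRF2 targets, which encode antioxidant and detoxifying enzymes, were called higher for 10 and lower for 2 of 36 genes in males and for 9 and 3 in females, and the 10 were 6 without Het_M_119 or Het_M_125. Akr1b7, also among the 10, passed the filter only through the KO males and adds no support to that count. Nqo1, a quinone reductase, was at 4.54, 5.37 and 4.65 CPM in Het and at 38.4, 32.2 and 34.8 CPM in KO males (log2 fold change 2.84, adjusted p = 4.2e-06). Lpl, lipoprotein lipase, rose by 4.26 in males and 4.05 in females, from 15.9, 10.97 and 16.1 CPM to 211, 275 and 340 CPM in males. Peroxisomal genes were called lower for 11 of 38 in males and 16 in females, and Scp2, which carries sterols and fatty acyl groups, fell by 1.27 in males. The count of 11 fell to between 3 and 5 without Het_M_119, Het_M_125 or any 1 of the KO males. In mitochondrial fatty acid oxidation 2 of 32 genes were called lower in males and 18 in females, with medians of -0.397 and -0.798. The male count is near the 3.30% of all genes, and it was 1 without any 1 male liver other than KO_M_118 and 9 without KO_F_108. The difference was positive with an unadjusted p under 0.05 for 4 of the 32 and called for none, so the larger number of calls in females does not show that the effects differed. In the same way 2 of 28 sinusoidal endothelial genes were called lower in males and 14 in females, with an unadjusted difference in 6, and the 2 became 10 without KO_M_122 and 3 without Het_F_111, Het_F_126 or KO_F_108. Hepatocyte transcription factors were called lower for 6 of 32 genes in males and 6 in females. The male count was 3 without Het_M_119, 1 without Het_M_125 and 2 without Het_M_137 or any 1 of the KO males. Cebpa, a member called lower, was at 276, 341 and 318 CPM in Het and at 162, 111.1 and 155 CPM in KO males.

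**Figure D5:**
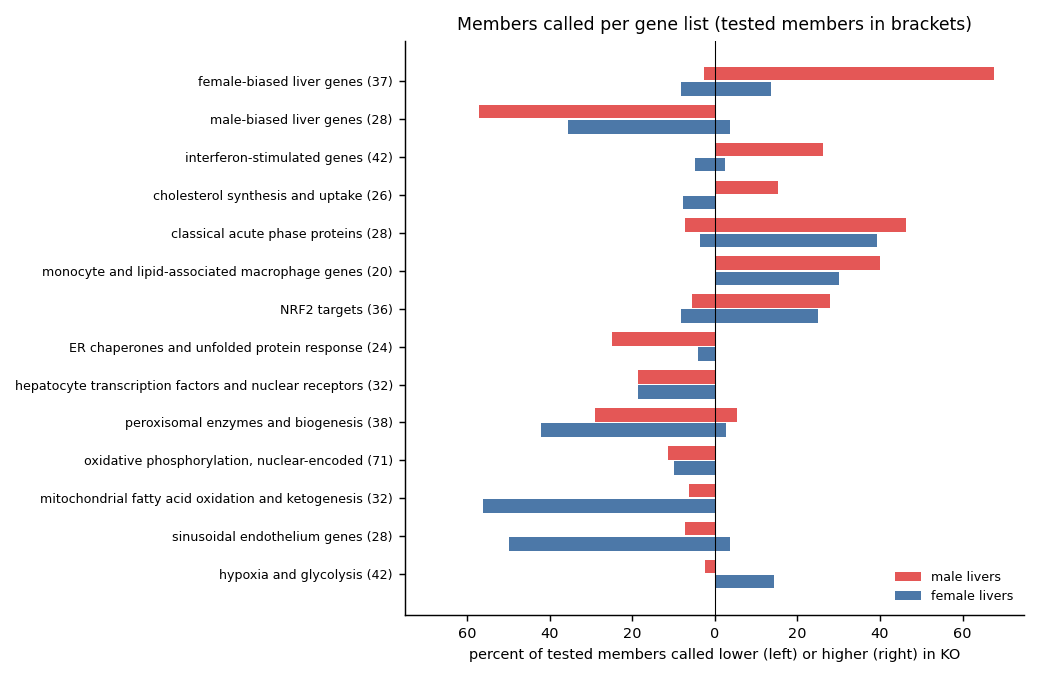
Percent of the tested members of 14 gene lists (numbers in brackets) called lower (left) or higher (right) in KO livers of males (red) and females (blue). Among the lists drawn, the female-biased, interferon-stimulated and cholesterol lists have more members called higher in males, and fatty acid oxidation and endothelial lists have more called lower in females.

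Cell type markers were examined because bulk RNA cannot tell fewer cells of a type from less RNA per cell. The 6 hepatocyte markers summed to between 56916 and 71373 CPM in male Het and between 72054 and 97274 CPM in male KO livers, so the label of the tissue held, and none was called. Most of that sum was Alb (34900 to 54000 CPM in Het, 54700 to 79300 CPM in KO), whereas Ttr was at 3140 to 3350 CPM in Het and at 1960 to 2910 CPM in KO livers, with no overlap. Monocyte and macrophage markers summed to 1.40 to 3.07 CPM in Het and 5.13 to 7.42 CPM in KO livers, and 2 of 4, Trem2 and Gpnmb, were called higher. Among 20 monocyte and lipid-associated macrophage genes 8 were called higher in males and 6 in females, against 4.75% and 5.84% of all genes. Chil3, a chitinase-like protein of such cells, had 2 reads in Het and 257 in KO males, a ratio of 104 (exact 95% counting interval 28.6 to 866). It passed the filter only through the KO males. The direction of its change was thus fixed by the filter, and it adds no support to the count of 8. The Kupffer cell markers summed to 79.4 to 112.02 CPM in Het and 105 to 295 CPM in KO livers, with KO_M_122 the highest, and 1 of 4 was called. That marker was Vsig4, higher in KO, and its call was lost without any 1 male liver other than KO_M_136 (adjusted p 0.052 to 0.10). Neutrophil markers summed to at most 2.43 CPM, with Ly6g, Retnlg and S100a8 below 1 CPM in all 6 livers, while Prtn3, a myeloid serine protease, was at 6.66, 5.997 and 10.7 CPM in KO males and had 3 reads in Het males (ratio 238, interval 81.1 to 1155). Prtn3 also passed the filter only through the KO males, which fixed the direction of its change. The markers Cd3e, Cd79a and Nkg7 of T, B and NK cells stayed below 1 CPM in all 6 livers. Stellate cell markers summed to 146 to 208 CPM in Het and 55.0 to 108.2 CPM in KO livers, with Lrat and Reln called lower. Most of that sum was Reln, whose call was lost without Het_M_137, KO_M_118 or KO_M_136 (adjusted p 0.058 to 0.069). The markers Col1a1 and Des were not called, and their groups overlapped. Col1a1 was at 3.02 to 7.37 CPM in Het and at 3.35 to 10.4 CPM in KO livers. Des was at 2.92 to 3.35 CPM in Het and at 1.95 to 4.35 CPM in KO livers. The part of cell numbers in the results above was not tested.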

How the data were processed

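Total RNA of 12 livers (3 mice per sex and genotype) was depleted of ribosomal RNA and sequenced as stranded pairs. The authors aligned reads with STAR 2.7.9a to GRCm39 and quantified them with Salmon 1.10.1 within nf-core/rnaseq on GENCODE annotation, and deposited the results. The deposited estimated counts per gene, which the authors made with Salmon and merged over transcripts, need not be whole, and a length-scaled version and TPM stood beside them. The counts were rounded to whole numbers here, and the male libraries held 30044781 to 43200195. All 12 livers entered 1 fit of 4 group means in edgeR 4.0.16 (TMM scaling, glmQLFit with robust estimation, a prior count of 2 and the newer quasi-likelihood method, which is not this version's default, so the older one was an alternative), with 8 residual degrees of freedom. Contrasts were KO minus Het in males, in females, and the difference of both. Adjusted p-values are Benjamini-Hochberg values over 18083 genes. The deposited TPM values were used in limma 3.58.1 on log2(TPM + 1) and log2(TPM + 0.1), and DESeq2 1.42.0, other scalings, other filters and leaving out each liver were further alternatives.

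Genes named are those of the design (Xpa, Ercc8), the 10 largest rises and falls among called genes with non-overlapping groups and a mean of at least 1 CPM, the 3 called genes with the most reads per direction, the genes called for the sex difference, up to 3 members per list by p and all called sex-biased genes, a set of growth hormone genes, and cell type markers. 3 genes that meet these rules are not reported here. The gene lists and the comparison itself were chosen with earlier results of these data known. Intervals and floors of 3 counts cover counting error only. Positions and promoters come from GENCODE M39 on GRCm39, the build of the files, which held 17995 of the tested genes. The fit was tested on simulated data.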

Additional observations from a re-analysis of the deposited data

Results flagged for a closer look

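These genes were singled out because the KO effect in male livers differed from that in female livers by a test of the difference itself, in which about 1 call in 20 may be false at the threshold used. The value given is the log2 effect in males minus that in females. The difference was 9.01 for Cyp2a4, 6.64 for Cyp2b9, 6.39 for Slc22a26, 4.59 for Gm42375, 4.51 for Slc22a27, 3.35 for Gm6135 and 2.86 for Cyp2c38. It was 2.09 for Gbp3, 1.91 for Fam171b, 1.77 for Aph1b and 1.64 for Fmo4. Negative differences were found for Gm4956 (-4.83), Gstp1 (-2.70), Gm3776 (-2.17), Cyp2u1 (-2.14) and Ahcyl2 (-0.962). Of these, Cyp2a4, Gm4956 and Gm42375 kept the call under every alternative that tested them, whereas each of the others lost it under at least 8 alternatives, most of them with 1 liver left out. Gm42375 passed the filter only through the KO males, so the direction of its change in males was fixed by the filter.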

How the results depend on the processing

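The fall of Xpa in males kept its direction and its call under all alternatives, between -2.37 and -1.62. The 1456 genes called in males became 2273 with DESeq2 and 375 at an adjusted p under 0.01, and 587 to 1888 when 1 liver was left out (587 without Het_M_125 and 1888 without KO_F_108). The 17 genes called for the sex difference became 158 with DESeq2, 50 with limma on log2(TPM + 1), 29 on log2(TPM + 0.1), 4 at an adjusted p under 0.01, 1 when each male liver had to hold 10 reads, and 4 to 93 when 1 liver was left out. Under the filter of 10 reads 3 of the 16 genes named were not tested and 12 had an adjusted p of 0.0504. All 17 were among the 158 of DESeq2. The cause of these changes was not tested. With the older quasi-likelihood method 1373 and 16 genes were called. Of 3275 values of named genes in males 2915 kept the call, 360 lost it and none changed sign. For the sex difference 244 of 404 values kept it, 160 lost it and none changed sign. The share of male calls that were higher in KO was 59% and moved by over 10 percentage points, to 69.6%, on log2(TPM + 0.1) and without KO_M_136. On log2(TPM + 0.1) the median of all genes was 0.10. No paired analysis was possible because the mouse numbers are unique and pair no livers across groups. Genes near 0 reads in 1 group are limited by depth.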
